A study of Homo sapiens with 12 samples.

Results

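The genes described here code for the proteins of the large (60S) subunit of the cytoplasmic ribosome. They were chosen by name: RPL followed by a number, with an optional A, X or L ending, and RPLP0, RPLP1 and RPLP2. The rule found 48 RPL genes with 405 windows, of 16417 genes with 296568 windows in the authors' 4 deposited tables together. Of the 50 RefSeq symbols that fit the rule, RPL10L and RPL3L were named on no window. N6-methyladenosine (m6A), a mark on adenosines of messenger RNA, was mapped in NOMO-1, a human acute myeloid leukaemia line, by sequencing the RNA that an m6A antibody pulled down (immunoprecipitation, IP) beside the RNA it was taken from (input). Cells carried sgMETTL16-1, sgMETTL16-2 or the control guide sgNS, delivered by lentivirus and kept under puromycin at 2 ug/ml. The guides sgMETTL16-1 and sgMETTL16-2 were used to knock out METTL16, an RNA methyltransferase, and 2 input and 2 IP libraries of poly(A) RNA were made per guide, 12 libraries in all. All cells, the sgNS controls included, carried a guide and the selection marker, and nothing in the labels says that the replicate numbers stand for separate cultures or that a knockout line is 1 clone.

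The large subunit joins amino acids in its peptidyl transferase centre, which is made of RNA, and its proteins fold that RNA, line the tunnel through which the new chain leaves, and bind translation factors. Each cell needs nearly equal numbers of every ribosomal protein. Their messenger RNAs are short and abundant, and they are the textbook TOP mRNAs: they begin with a C followed by a run of pyrimidines, which lets mTOR signalling set their translation together. METTL16 is known to methylate U6 small nuclear RNA and hairpins of the MAT2A messenger RNA, while most m6A on messenger RNA is laid down by the METTL3 and METTL14 complex.

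The results rest on the authors' comparisons and not on values per library. Each of the 4 deposited tables compares 1 knockout guide with sgNS under 1 replicate number and lists windows, which may consist of several blocks separated by gaps in the genome. Each window has a fold enrichment (IP over input) and the log2 fold change of m6A between knockout and sgNS cells. Values under 0 are taken to mean less m6A in knockout cells, as programs that write such column names usually define it. The definition is not stated, and if it were the other way round, all directions given here would be reversed. A window is called when the authors' false discovery rate (FDR) of the difference was under 0.05, and enriched when that of IP over input was under 0.05. The tables give no error for a value, only 2 values per guide can be compared, the number of reads is unknown, and tables of the same replicate number may share sgNS libraries, so a change that 2 such tables share cannot be told apart from a deviation of those controls. All 8 markers of myeloid cells that were looked up had windows in each table, and the 2 T cell, 2 erythroid and 2 epithelial markers had none. Ribosomal protein genes have many processed pseudogenes, and how reads that fit several copies were assigned is not given in the sources used here, so each window's value is uncertain to that extent.

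The starts of these genes show the TOP feature that the family shares and that the rule did not use. In the RefSeq annotation of GRCh38.p14, an unbroken run of at least 8 C or T covered the annotated start of 28 of the 40 RPL genes whose start was read (70%). Runs of that kind were found in 19 of 27 RPS genes of the small subunit (70.4%), in 1 of 42 MRPL genes of the mitochondrial large subunit (2.38%) and in 1623 of all 27305 genes (5.94%). For a gene with several annotated starts the one with the longest run was taken. The motif CTTTCC, searched on both strands within 15 bases of the start, was present in 35% of RPL genes and 3.45% of all genes. It can lie inside the pyrimidine run, so the 2 counts are not independent. In the following stretches, 15 bases on each side of the start and written 5′ to 3′ on the gene's strand, capitals mark the run of C or T over the start. RPL37A, RPL34, RPL7A, RPL18, RPL19 and RPL39 are shown as examples of genes whose windows carry large or repeated differences described below. RPL36, RPL12, RPL15 and RPL32 are shown because theirs do too, although the run is shorter than 8 or missing.
RPL37A (chr2:216498829-216498858, + strand): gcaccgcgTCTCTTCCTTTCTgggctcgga
RPL34 (chr4:108620561-108620590, + strand): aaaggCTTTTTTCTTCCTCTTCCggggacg
RPL7A (chr9:133348203-133348232, + strand): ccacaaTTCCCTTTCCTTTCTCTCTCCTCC
RPL18 (chr19:48619164-48619193, - strand): accccagcccgTTCTCTCTTTCCggacctg
RPL19 (chr17:39200308-39200337, + strand): gagcgagCTCTTTCCTTTCgctgctgcggc
RPL39 (chrX:119791616-119791645, - strand): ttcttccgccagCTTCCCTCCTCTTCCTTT
RPL36 (chr19:5690280-5690309, + strand): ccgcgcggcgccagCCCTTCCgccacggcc
RPL12 (chr9:127451392-127451421, - strand): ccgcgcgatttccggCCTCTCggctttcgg
RPL15 (chr3:23916530-23916559, + strand): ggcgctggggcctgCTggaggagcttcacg
RPL32 (chr3:12840436-12840465, - strand): ggtgaggtgacccttgacctcctgggatcg
The run was 25 bases long in RPL7A and 22 in RPL39, where it goes on past the end of the printed stretch, and 18 bases in RPL34. It was 6 bases in RPL12 and 2 bases in RPL15, and did not cover the start listed for RPL32. Other genes with such differences are not printed. Among them are RPL10A and RPL27, where no run covered the start, RPL3 (5 bases) and RPL38 (9 bases). Of the 405 RPL windows, 7 had a base in one of these 30-base stretches of the 40 genes, so the m6A windows described below lie mostly elsewhere in the messenger RNAs.

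RPL transcripts were often enriched in the IP, but weakly. Enriched windows made up 43.1% of the 109 RPL windows in the sgMETTL16-1 replicate 1 table of the authors, against 8.1% of all windows there. The shares were 34.8% of 92 RPL windows against 11.9% of all windows for sgMETTL16-1 replicate 2, 42.9% of 112 against 10.2% for sgMETTL16-2 replicate 1, and 35.9% of 92 against 12.3% for sgMETTL16-2 replicate 2. Their median fold enrichment in the deposited tables lay between 1.35 and 1.48 over the 4 tables, while that of all enriched windows lay between 1.78 and 1.92. Most enriched RPL windows were built of more than 1 block, from 71.9% to 85.4% of them over the tables, against 44.3% to 46.9% of all enriched windows. These traits were not particular to RPL genes. Of RPS windows, 40% to 42.6% were enriched, with median fold enrichments of 1.275 to 1.37, and 70% to 87% of those had more than 1 block. Of windows of other TOP mRNAs, 31.1% to 44.8% were enriched, with medians of 1.29 to 1.34. Between 36.4% and 40.6% of enriched RPL windows came within 300 bases of the annotated 3′ end of their gene, against 16.9% to 20.2% of all enriched windows. RPL genes are short, so a random position in them is also closer to an end, and this share is a description of place only. Of the 48 genes, 40 had an enriched window in some table. Those without one included RPL17, RPL21, RPL22 and RPL36A.

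Differences between knockout and sgNS cells were called in RPL windows more often than in windows at large, mostly lower in replicate 1 and in both directions in replicate 2. In replicate 1, 18 of 109 RPL windows (16.5%) were called lower and 3 (2.75%) higher with sgMETTL16-1, where 0.281% of all windows were called lower and 0.0743% higher. With sgMETTL16-2 in replicate 1, 18 of 112 RPL windows (16.1%) were called lower and 2 (1.79%) higher, against 0.965% and 0.875% of all windows. In replicate 2, 5 of 92 RPL windows (5.43%) were called lower and 7 (7.61%) higher with sgMETTL16-1, against 0.167% and 0.583% of all windows. With sgMETTL16-2 in replicate 2, 4 of 92 (4.35%) were called lower and 9 (9.78%) higher, against 0.149% and 0.586% of all windows. In either direction, RPL calls made up 19.3% (sgMETTL16-1) and 17.9% (sgMETTL16-2) of RPL windows in replicate 1, against 0.355% and 1.84% of all windows, and 13.0% and 14.1% in replicate 2, against 0.749% and 0.734%. As deposited, lower RPL calls outnumbered higher ones with both guides in replicate 1, and higher ones outnumbered lower ones with both in replicate 2. For sgMETTL16-1 in replicate 2 the margin was narrow, 7 against 5, and with a two-sided p-value it was 4 against 4. The shares of all windows given above leaned the same way in each table, so the lean is not particular to RPL windows. The called RPL differences were smaller than those of all called windows, as given below. These messenger RNAs are abundant and the number of reads is unknown, and whether the higher shares called go with it was not tested.

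**Figure D1:**
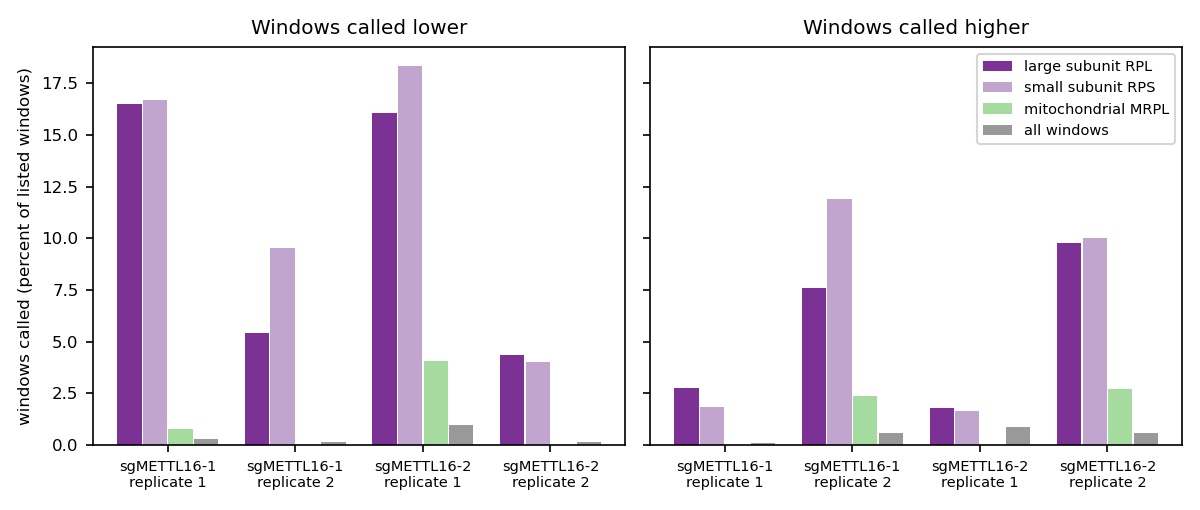
Share of listed windows called lower (left) and higher (right) in knockout cells, in percent, for each deposited table, with bars for RPL, RPS, MRPL and all windows. RPL bars reach 16.5% and 16.1% on the left in replicate 1 and 7.61% and 9.78% on the right in replicate 2, while the bars of all windows stay under 1%.

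The median log2 fold change of RPL windows was -0.11 with sgMETTL16-1 and -0.12 with sgMETTL16-2 in replicate 1, and -0.013 and 0 in replicate 2, against 0 for all windows of each deposited table. The tables were not centred alike: all enriched windows had medians of -0.038 (sgMETTL16-1) and 0.13 (sgMETTL16-2) in replicate 1, and of 0.13 and 0.14 in replicate 2. Relative to those medians, with two-sided p-values recomputed, the calls were 12 lower and 3 higher in replicate 1 and 11 lower and 0 higher in replicate 2 for sgMETTL16-1. For sgMETTL16-2 they were 25 lower and 1 higher in replicate 1 and 6 lower and 3 higher in replicate 2. The mixed directions of replicate 2 as deposited were thus mostly lower on this scale, and 46 of the 66 windows called as deposited remained called.

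The sizes of the called differences were small. Of the 66 called RPL windows, 55 had an absolute log2 fold change under 0.5 and 6 had one of at least 1. The median absolute log2 fold change of called windows lay between 0.22 and 0.26 for RPL genes over the 4 tables and between 0.45 and 0.73 for all called windows. All but 1 of the 66 were enriched in the IP, the exception being RPL39 in the sgMETTL16-1 replicate 1 table. Of enriched RPL windows, 37.5% to 42.6% were called in a table, against 3.59% to 11.8% of all enriched windows. The 66 calls fell on 31 genes, and none of the 66 windows shared bases with a window of another gene, which 22 of the 405 did.

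**Figure D2:**
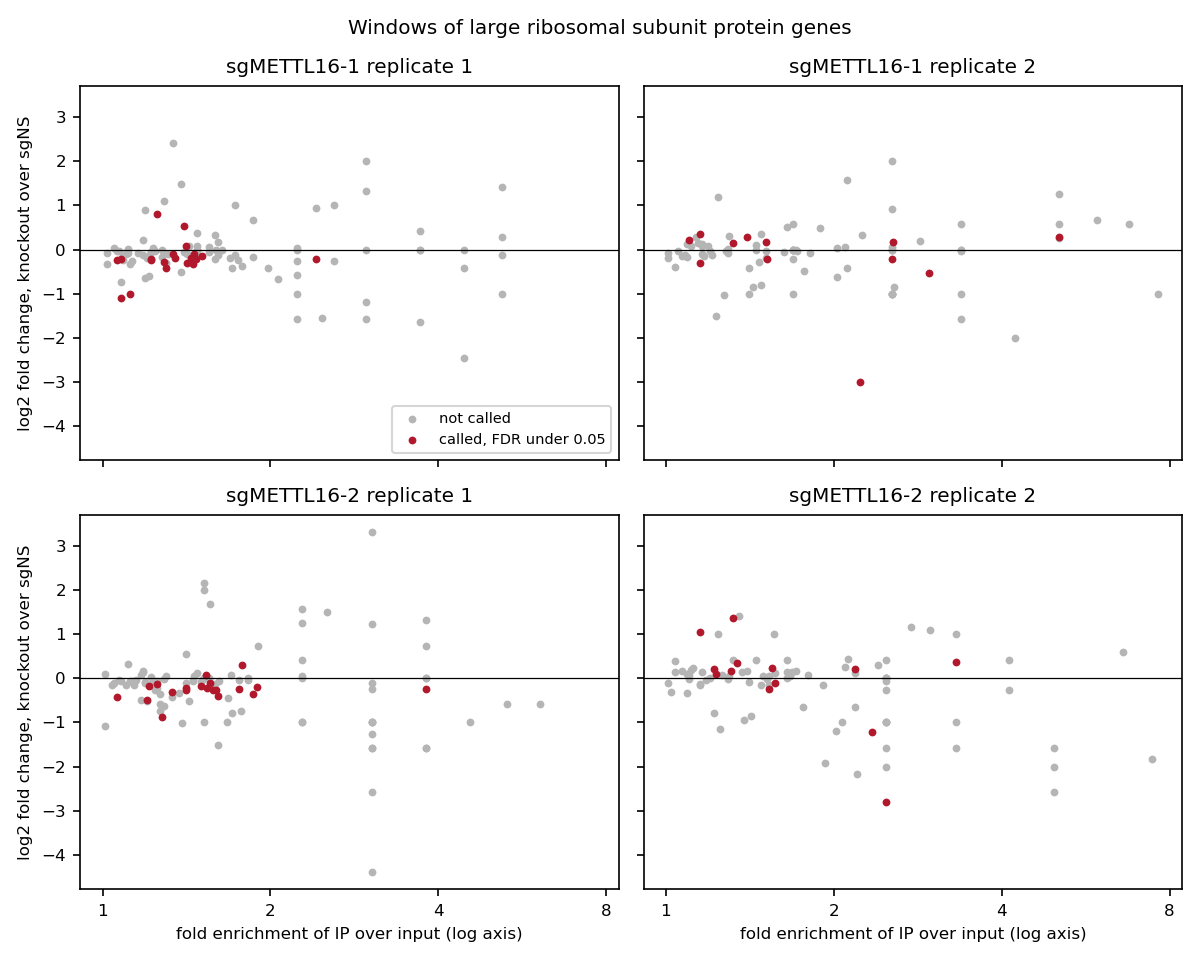
Each point is 1 RPL window of a deposited table, placed by its fold enrichment of IP over input (horizontal, log axis) and its log2 fold change between knockout and sgNS (vertical), with called windows in red. Called windows lie close to 0 with fold enrichments mostly under 2, and the largest differences are those of RPL15 at -3.00 and -2.81 in replicate 2, while many windows farther from 0 were not called.

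The stalk recruits and activates the elongation factors. RPL12, which sits at its base, had a 4-block window over the 3′ part of its gene (chromosome 9, 127447674 to 127449328) that fell in the knockouts in replicate 1, with log2 fold changes of -0.29 for sgMETTL16-1 (FDR 6.31e-05) and -0.32 for sgMETTL16-2 (FDR 3.31e-05) in the authors' deposited tables. In replicate 2 a 61-base window inside it was not enriched and had deposited values of -0.395 (sgMETTL16-1) and -0.30 (sgMETTL16-2), neither called. The enriched RPL12 window of sgMETTL16-1 in replicate 2 was another one, of 121 bases nearer the gene start (127449664 to 127451282). Its deposited value was 0.147, not called. RPLP0, the protein that anchors the stalk, rose in 1 table only, by 0.35 for sgMETTL16-1 in replicate 2 (FDR 0.0316), in a window of 235 bases on chromosome 12. Its windows over the same stretch had deposited values of 0.22 (sgMETTL16-1, replicate 1), 0.069 (sgMETTL16-2, replicate 1) and 0.076 (sgMETTL16-2, replicate 2), none of them called. RPLP2, 1 of the paired acidic proteins at the tip, fell in the sgMETTL16-2 replicate 1 table by 0.18 on the log2 scale (FDR 0.0105), and the same 204 bases had a deposited value of -0.12 with sgMETTL16-1 (FDR 0.308). RPLP1, its partner, had 1 window in each replicate 1 table, with deposited log2 fold changes of -0.034 (sgMETTL16-1) and -0.053 (sgMETTL16-2), not called. Neither acidic protein had a window in the replicate 2 tables.

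RPL5 and RPL11 enter the subunit together with 5S ribosomal RNA, and outside the ribosome they bind MDM2, the regulator of p53. RPL5 fell in the sgMETTL16-2 replicate 1 table in 2 windows that follow each other along the gene, by 0.49 (FDR 1.78e-10) and 0.275 (FDR 7.94e-06) on the log2 scale. The lead windows of RPL5, those with the smallest p-value of IP over input in a table, had deposited values of 0.066 with sgMETTL16-1 in replicate 1 and of 0.10 (sgMETTL16-1) and 0.16 (sgMETTL16-2) in replicate 2, none called. RPL11 fell slightly in the same table, by 0.11 (FDR 0.00269), over a 4-block window on chromosome 1 from 23693864 to 23696426. Its other lead windows lay between -0.044 and 0.047 in the authors' deposited tables and were not called. For this pair, therefore, calls came from 1 of the 4 tables.

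Around the peptidyl transferase centre, RPL15 held the largest called difference of the family. RPL15 is a core protein that binds the 28S ribosomal RNA. Its 210-base window of 4 blocks (chromosome 3, 23918018 to 23921605) had deposited log2 fold changes of -3.00 with sgMETTL16-1 (FDR 5.01e-92) and -2.81 with sgMETTL16-2 (FDR 1e-83) in replicate 2. In replicate 1 its lead windows, 121 bases that all lie within the same blocks, had deposited values of -0.077 (sgMETTL16-1) and -0.15 (sgMETTL16-2) and were not called. The replicate 2 windows were enriched 2.23-fold (sgMETTL16-1) and 2.48-fold (sgMETTL16-2) in the authors' deposited tables. The calls of RPL15 thus came from both guides and from the replicate 2 tables alone.

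RPL3, which reaches into the centre, was called in opposite directions in windows that share 60 bases. A 149-base window of RPL3 near the 5′ end (chromosome 22, 39317626 to 39318544) rose by 0.81 with sgMETTL16-1 in replicate 1 (FDR 3.98e-32) in the authors' deposited table. A 773-base window of 6 blocks (39314145 to 39318455) fell by 0.245 with sgMETTL16-2 in replicate 2 (FDR 5.01e-16), and the closely matching 803-base window of sgMETTL16-1 in replicate 2 had a deposited value of -0.059 (FDR 0.436). RPL8, a core protein next to the centre, rose in 3 tables by small amounts. Its deposited log2 fold changes were 0.088 with sgMETTL16-1 in replicate 1 (FDR 0.0117), 0.23 with sgMETTL16-1 in replicate 2 (FDR 0.00372, in a window that shares 1 base with the first) and 0.096 with sgMETTL16-2 in replicate 2 (FDR 0.00339). Relative to the median of enriched windows, the last of these values turned to -0.039. RPL4, which lines the exit tunnel, rose by 0.17 with sgMETTL16-1 in replicate 2 (FDR 0.0437) and had uncalled deposited lead values of -0.049 (sgMETTL16-1, replicate 1), 0.080 (sgMETTL16-2, replicate 1) and 0.12 (sgMETTL16-2, replicate 2). RPL10A, the protein of the L1 stalk that guides spent transfer RNA out, rose where it was called: by 0.52 with sgMETTL16-1 in replicate 1 (FDR 1.78e-07) and by 1.04 with sgMETTL16-2 in replicate 2 (FDR 5.01e-24). Those 2 windows of RPL10A share no bases, and over the first of them the sgMETTL16-2 replicate 1 table had a 91-base window at -0.038 that was not called in the authors' deposited table.

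**Figure D3:**
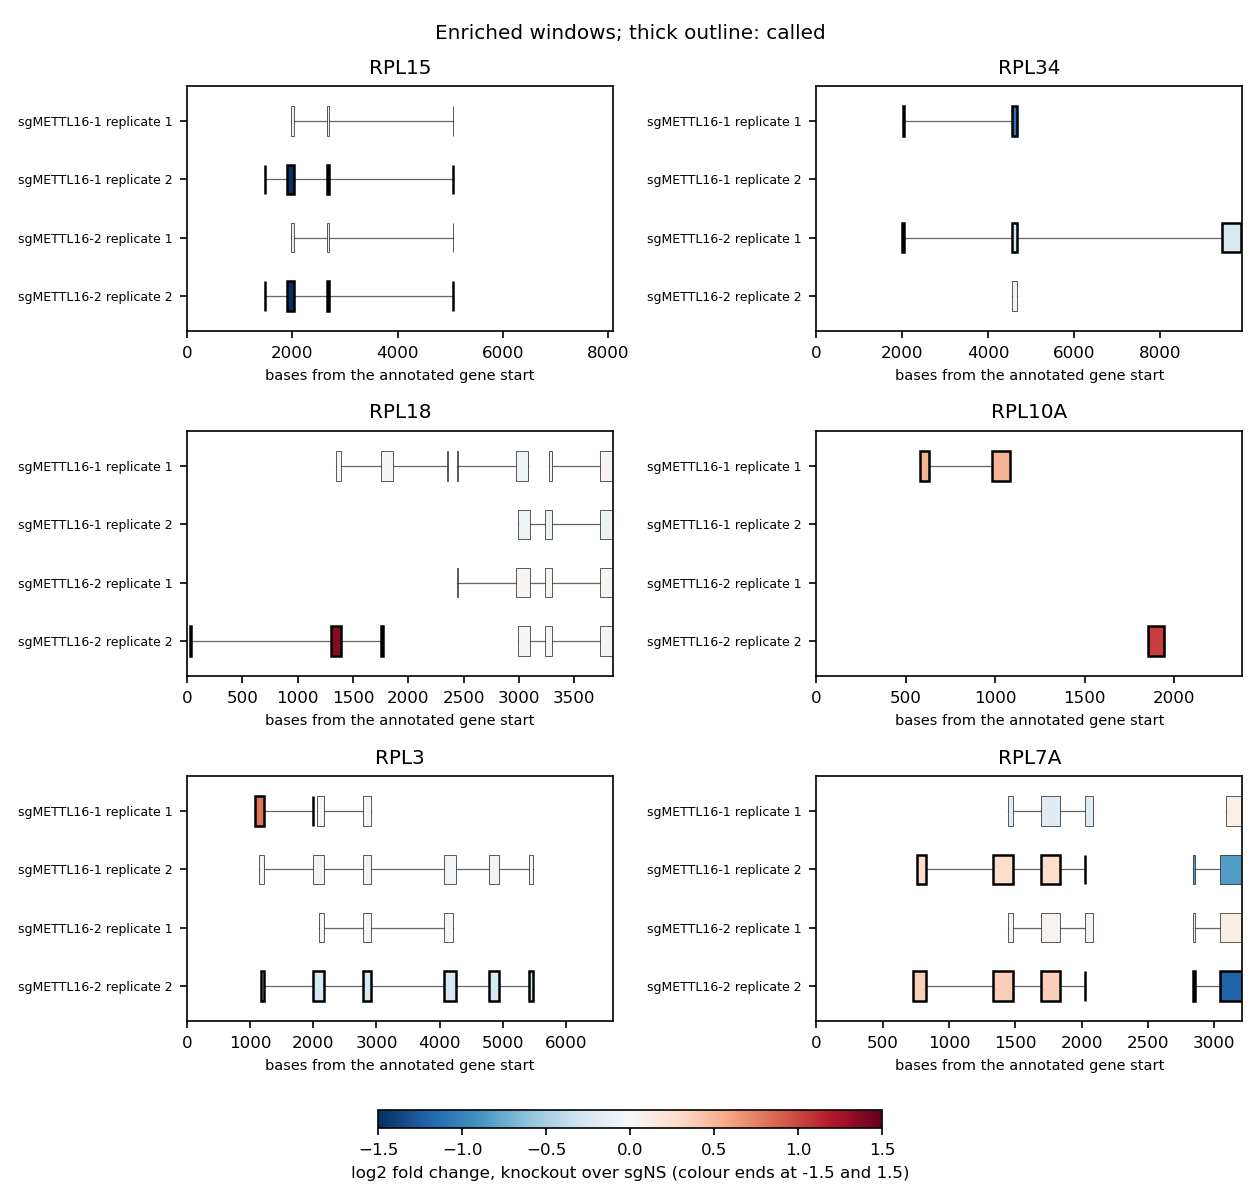
Enriched windows of RPL15, RPL34, RPL18, RPL10A, RPL3 and RPL7A in each deposited table, drawn as blocks (boxes) joined by lines at their distance in bases from the annotated gene start, coloured by log2 fold change (scale ends at -1.5 and 1.5) and outlined thickly where called. RPL15 carries dark blue windows in both replicate 2 tables and pale ones over the same place in replicate 1, whereas the called windows of RPL10A lie in different places.

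Proteins at the mouth of the exit tunnel form the docking site for the signal recognition particle and other factors. RPL26 fell in replicate 1 with both guides, by 0.42 for sgMETTL16-1 (FDR 2.00e-18) and 0.21 for sgMETTL16-2 (FDR 0.000331) in the authors' deposited tables, in a 2-block window at the 3′ end of the gene on chromosome 17. In replicate 2 the RPL26 lead windows had values of 0.084 (sgMETTL16-1) and 0.14 (sgMETTL16-2), not called. RPL35, which contacts the signal recognition particle, moved in opposite directions in replicate 1. Its deposited log2 fold changes were -0.23 with sgMETTL16-1 (FDR 5.25e-07) and 0.30 with sgMETTL16-2 (FDR 2.00e-11), over windows of 317 and 345 bases that end at the same place, and in replicate 2 they were -0.032 and 0.073, not called. RPL31 fell with sgMETTL16-1 in replicate 1, by 0.20 (FDR 0.0002), and had a deposited value of -0.051 (FDR 0.505) in the sgMETTL16-2 table of that number. In replicate 2 the RPL31 lead windows had values of 0.258 (sgMETTL16-1, in a different place) and 0.147 (sgMETTL16-2), not enriched and not called. RPL39, a very small protein of the tunnel wall, fell in replicate 1 in the last 120 bases of its gene (chromosome X, 119786504 to 119786623), with log2 fold changes of -0.996 for sgMETTL16-1 (FDR 1.51e-05) and -0.88 for sgMETTL16-2 (FDR 0.00741) in the authors' deposited tables. That window was enriched in the IP with sgMETTL16-2 (FDR 0.00631) but not with sgMETTL16-1 (FDR 0.728). In replicate 2 RPL39 had 1 window, of 91 bases near its start, with a deposited value of 0.32 (sgMETTL16-1, not called).

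RPL19, RPL27, RPL36 and RPL38 were the genes whose matched windows were called in opposite directions in the 2 tables of a guide. RPL19, which reaches across to the small subunit, had deposited log2 fold changes of -0.11 in replicate 1 (FDR 0.00617) and 0.14 in replicate 2 (FDR 7.08e-06) with sgMETTL16-1. With sgMETTL16-2 the RPL19 values were -0.03 (not called) in replicate 1 and 0.17 (FDR 7.94e-08) in replicate 2. RPL36 followed the same course in the authors' deposited tables. Its values were -0.20 in replicate 1 and 0.17 in replicate 2 for sgMETTL16-1, and -0.016 (not called) and 0.24 for sgMETTL16-2. RPL27, a gene mutated in some families with Diamond-Blackfan anaemia, had deposited values of -0.27 (FDR 2.00e-07) in replicate 1 and 0.355 (FDR 4.47e-06) in replicate 2 with sgMETTL16-2, and of -0.12 (not called) and 0.29 (FDR 0.0234) with sgMETTL16-1. RPL38, known in mice for its part in the translation of Hox messenger RNAs, fell in replicate 1 with sgMETTL16-1 (-0.22, FDR 1.51e-05) and sgMETTL16-2 (-0.27, FDR 6.61e-08), and rose with sgMETTL16-2 in replicate 2 (0.20, FDR 0.0398) in the authors' deposited tables. Such opposite calls were made in 2 of 35 matched RPL windows for sgMETTL16-1, where 0.0998% of all matched windows had them, and in 2 of 42 for sgMETTL16-2, where 0.0142% had them. Relative to the enriched medians of the tables, the higher calls of these 4 genes were all lost and no matched RPL window was called in opposite directions.

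RPL32 and RPL37A were the genes whose matched window was called lower in both tables of a guide. For RPL32 the window around chromosome 3, 12836006 to 12839366 had deposited log2 fold changes of -0.32 in replicate 1 (FDR 5.01e-13) and -0.31 in replicate 2 (FDR 4.47e-09) with sgMETTL16-1, where the replicate 2 window covers its 178-base block alone. With sgMETTL16-2 the RPL32 values were -0.23 (FDR 1.17e-05) in replicate 1 and -0.08 (FDR 0.565) in replicate 2. A second RPL32 window, of 208 bases nearer the gene start, also fell in replicate 1, by 0.205 for sgMETTL16-1 (FDR 3.55e-05) and 0.13 for sgMETTL16-2 (FDR 0.0389) in the authors' deposited tables, and had an uncalled value of 0.11 with sgMETTL16-2 in replicate 2. RPL37A, a zinc-binding protein, had 1 window of 269 bases (chromosome 2, 216499338 to 216501465) with the same bounds wherever it was called. Its deposited values were -0.14 in replicate 1 (FDR 0.000209) and -0.21 in replicate 2 (FDR 3.55e-08) with sgMETTL16-1, and -0.086 (not called) and -0.12 (FDR 0.0162) with sgMETTL16-2. The background for such shared falls was 0.0449% of the 20031 matched windows of sgMETTL16-1 and 0.0613% of the 21192 of sgMETTL16-2, where none of the 42 matched RPL windows was lower in both tables. No RPL window was called higher in both tables of a guide, which 0.02% of all matched windows were with sgMETTL16-1 and 0.529% with sgMETTL16-2. At an overlap of 0.8 of each window in place of 0.5, RPL37A alone remained for sgMETTL16-1, and relative to the enriched medians RPL32 alone did, so neither gene held under both. For sgMETTL16-2 both genes were called lower in both tables relative to the enriched medians.

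RPL30, a small RNA-binding protein at a bridge between the subunits, was called lower in 3 tables, but its windows differed too much in length to match. Its window at the 3′ end of the gene had deposited log2 fold changes of -0.18 in replicate 1 (FDR 0.000813) and -0.535 in replicate 2 (FDR 0.0427) with sgMETTL16-1, and of -0.41 (FDR 7.94e-11) and -0.65 (FDR 0.163, not called) with sgMETTL16-2. The replicate 2 windows covered the last 88 and 59 bases of the longer replicate 1 windows. RPL29 fell with sgMETTL16-1 in replicate 2, by 0.21 (FDR 0.0170), in a single block of 406 bases at the 3′ end, and had uncalled deposited values of -0.12 (sgMETTL16-1, replicate 1), -0.033 (sgMETTL16-2, replicate 1) and -0.058 (sgMETTL16-2, replicate 2). RPL29 also held the highest fold enrichment of the enriched RPL windows, 5.20 in the sgMETTL16-1 replicate 1 table of the authors.

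In replicate 1, 11 genes were called lower with both guides and none was called higher with both. The 11 were RPL12, RPL26, RPL30, RPL32, RPL38 and RPL39, given above, and RPL23, RPL27A, RPL34, RPL35A and RPL37. They are 23.4% of the 47 RPL genes with windows in both tables, against 0.954% of all genes, and 0.137% of all genes were called higher with both. Relative to the enriched medians, 8 of the 11 kept both calls, RPL27A, RPL30 and RPL35A did not, and RPL31 and RPL36 were added. RPL23, which like RPL5 and RPL11 can bind MDM2, had 375-base windows on chromosome 17 (38850068 to 38852717) with deposited values of -0.295 with sgMETTL16-1 (FDR 5.01e-12) and -0.36 with sgMETTL16-2 (FDR 3.98e-15). In replicate 2 an 87-base RPL23 window inside them had values of 0.116 (sgMETTL16-1) and 0.226 (sgMETTL16-2), not enriched and not called. RPL34 fell by 1.09 with sgMETTL16-1 (FDR 7.94e-42) in a 148-base window and by 0.245 with sgMETTL16-2 (FDR 0.0309) in a 617-base window that contains it and ends 30 bases before the 3′ end of the gene. The RPL34 windows were enriched 1.08-fold and 3.80-fold in the authors' deposited tables, so the larger difference sat on the weaker peak. In replicate 2 the RPL34 lead windows had values of -0.156 (sgMETTL16-1) and -0.049 (sgMETTL16-2), not called. RPL35A, mutated in some patients with Diamond-Blackfan anaemia, had a 58-base window at -0.23 (sgMETTL16-1, FDR 0.0123) and -0.43 (sgMETTL16-2, FDR 1.95e-08) and a second, 114-base window at -0.23 with sgMETTL16-2 (FDR 0.0105) in the authors' deposited tables. RPL37 and RPL27A fell by about 0.2, with deposited values of -0.21 and -0.19 for sgMETTL16-1 and of -0.19 and -0.17 for sgMETTL16-2, RPL37 before RPL27A. Because sgNS libraries may be shared between these 2 tables, the count of 11 is not a count of repeats.

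In replicate 2, RPL15 and RPL37A were called lower with both guides, and RPL19, RPL27, RPL36, RPL7A and RPL8 were called higher with both. Of the 41 RPL genes with windows in both tables these are 4.88% and 12.2%, against 0.308% and 1.37% of all genes. Relative to the enriched medians no RPL gene was called higher with both guides, and 6 were called lower (RPL15, RPL18, RPL3, RPL32, RPL37A and RPL7A, the last in another window than its higher calls). The calls of RPL8 lie in different windows, and where sgMETTL16-2 was called the sgMETTL16-1 table had an uncalled deposited value of -0.093. RPL7A, a protein that contacts the 28S ribosomal RNA, had a 4-block window that rose by 0.28 with sgMETTL16-1 (FDR 6.31e-05) and 0.37 with sgMETTL16-2 (FDR 6.03e-09) in the authors' deposited tables. A second RPL7A window, of 179 bases in 2 blocks at the 3′ end of the gene (chromosome 9, 133351057 to 133351425), had values of -0.84 with sgMETTL16-1 (FDR 0.0525, not called) and -1.21 with sgMETTL16-2 (FDR 0.000182). In replicate 1 the enriched RPL7A windows had deposited values between -0.18 and 0.11 and none was called. RPL18 rose in 1 table, by 1.37 with sgMETTL16-2 in replicate 2 (FDR 1e-98), in a 119-base window of 3 blocks that begins 26 bases after the gene start (chromosome 19, 48617404 to 48619152), while its lead windows at the 3′ end lay between -0.073 and 0.036 in the authors' deposited tables. RPL14 rose by 0.20 in that table (FDR 0.00933), against uncalled deposited values of -0.16 (sgMETTL16-1, replicate 1), -0.13 (sgMETTL16-1, replicate 2) and 0.0084 (sgMETTL16-2, replicate 1). RPL28 was called in replicate 1 in both directions, at -0.096 with sgMETTL16-1 (FDR 0.00776) and 0.083 with sgMETTL16-2 (FDR 0.0123), and the second value turned to -0.042 relative to the median of enriched windows.

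**Figure D4:**
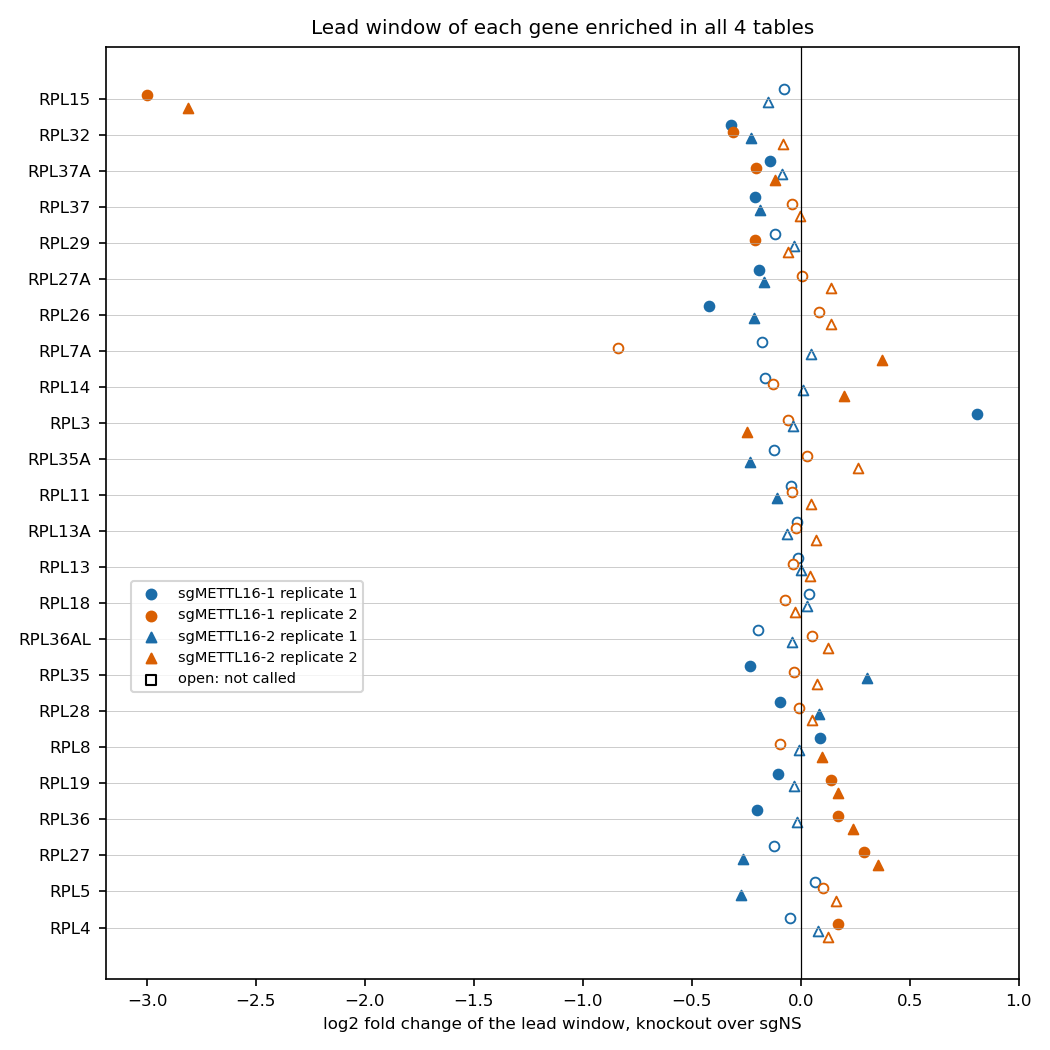
Log2 fold change between knockout and sgNS of the lead window of each of the 24 RPL genes whose lead window was enriched in all 4 deposited tables, ordered by median, with circles for sgMETTL16-1, triangles for sgMETTL16-2, blue for replicate 1, orange for replicate 2 and filled symbols for called windows. Blue symbols lie mostly left of 0 and orange ones on both sides, and the 5 genes RPL15, RPL32, RPL37A, RPL37 and RPL29 have all 4 symbols left of 0.

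Of the 41 genes with a window in every table, 24 had an enriched lead window in all 4. In those 24 genes the lead window lay below 0 in 20 with sgMETTL16-1 and 17 with sgMETTL16-2 in replicate 1, and in 15 and 7 in replicate 2. Their median log2 fold changes were -0.12 and -0.037 in replicate 1 and -0.035 and 0.085 in replicate 2, sgMETTL16-1 before sgMETTL16-2, in the authors' deposited tables. The lead windows of RPL15, RPL29, RPL32, RPL37 and RPL37A lay below 0 in all 4 tables, and no gene had all 4 above 0. In 7 genes (RPL19, RPL26, RPL27, RPL27A, RPL35A, RPL36 and RPL36AL) they lay below 0 in both replicate 1 tables and above 0 in both replicate 2 tables, and RPL18 had the reverse order. Relative to the enriched medians of the tables, 3 of these 7 (RPL19, RPL27 and RPL36) kept that order and RPL18 did not keep its own. On that scale the lead window lay lower than the median in 18 (sgMETTL16-1) and 23 (sgMETTL16-2) of the 24 genes in replicate 1 and in 20 (sgMETTL16-1) and 15 (sgMETTL16-2) in replicate 2, and 8 genes were lower in all 4 tables. For 15 of the 24 genes the lead windows of every pair of tables shared at least 0.5 of their bases, so in the other 9 the values come partly from different places. Such sign counts were not made for the lead windows of all genes. Of matched RPL windows, called or not, 20 of 35 (sgMETTL16-1) and 22 of 42 (sgMETTL16-2) had the same sign in both tables. For all matched windows these were 9696 of 20031 and 11614 of 21192, so agreement in sign was similar.

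The pairs of near-identical copies gave little to compare. RPL36A and RPL36AL code for nearly the same protein. RPL36AL was enriched in all 4 tables with uncalled deposited values of -0.19 (sgMETTL16-1) and -0.04 (sgMETTL16-2) in replicate 1 and of 0.05 (sgMETTL16-1) and 0.125 (sgMETTL16-2) in replicate 2. RPL36A had no enriched window, and 4 of its 6 windows shared bases with the readthrough gene RPL36A-HNRNPH2. RPL39L, the copy of RPL39 used mainly in the testis and in some tumours, had an enriched window in 1 table, with a deposited value of -0.24 with sgMETTL16-1 in replicate 1 (FDR 0.655). RPL10, which is added last and completes the subunit, had 17 windows with values between -1 and 1.58 in the authors' deposited tables. Of these, 1 was enriched (sgMETTL16-1, replicate 2, 0.505, FDR 0.658) and none was called, and 10 shared bases with DNASE1L1, a neighbouring gene. Other genes without a call included RPL13, RPL13A, RPL17, RPL21, RPL22, RPL23A, RPL24, RPL41, RPL6 and RPLP1. RPL41, which codes for one of the shortest human proteins, had deposited values of 2.42 (sgMETTL16-1) and 2.00 (sgMETTL16-2) in replicate 1 in an 88-base window that was not enriched and not called (FDR 0.655 and 0.659). RPL13 and RPL13A, which were enriched in every table, kept lead values between -0.064 and 0.069.

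RPS genes of the small subunit had calls in 14% to 21.4% of their windows over the 4 tables, against 0.355% to 1.84% of all windows. Whether the RPS share differs from that of RPL genes was not tested. Called lower were 9 of 54 RPS windows with sgMETTL16-1 and 11 of 60 with sgMETTL16-2 in replicate 1, and 4 of 42 and 2 of 50 in replicate 2. Called higher were 1 and 1 in replicate 1 and 5 and 5 in replicate 2, sgMETTL16-1 before sgMETTL16-2. RPS6, the target of S6 kinase, fell in replicate 1 by 0.20 (sgMETTL16-1) and 0.21 (sgMETTL16-2), and RPS23, a protein of the decoding centre, had values of -4.75 (sgMETTL16-1) and -3.46 (sgMETTL16-2) in replicate 2 in the authors' deposited tables. RPS2 was called lower with both guides in replicate 2, at -0.93 (sgMETTL16-1) and -0.99 (sgMETTL16-2). RPS3, RPS19 and RPS4X rose with both guides in replicate 2, at 0.33, 0.24 and 0.16 with sgMETTL16-1 and 0.34, 0.21 and 0.975 with sgMETTL16-2. RPS3 was called lower with sgMETTL16-1 in replicate 1, at -0.155 (FDR 0.000977), in a window with nearly the same bounds. RPS4X had deposited values of -0.23 (sgMETTL16-1) and -0.125 (sgMETTL16-2) in replicate 1, both called. Its window with sgMETTL16-2 in replicate 2 shares no bases with these, nor with that of sgMETTL16-1 in replicate 2. The median log2 fold change of RPS windows was -0.12 with both guides in replicate 1 and 0.0059 (sgMETTL16-1) and 0.13 (sgMETTL16-2) in replicate 2.

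MRPL genes, whose products build the large subunit of mitochondrial ribosomes, had calls in 0.758% to 4.05% of their windows, which in each table was above the share of all windows (0.355% to 1.84%). Of 132 and 148 MRPL windows in replicate 1, 1 was called lower with sgMETTL16-1 and 6 with sgMETTL16-2 and none higher, and of 127 and 110 in replicate 2, 3 were called higher with each guide and none lower. MRPL20 fell by 1.05 (sgMETTL16-1) and 0.98 (sgMETTL16-2) in replicate 1, in a window that was not enriched, and MRPL2 and MRPL16 rose with both guides in replicate 2, with deposited values of 0.50 (MRPL2) and 0.59 (MRPL16) for sgMETTL16-1 and of 0.525 and 0.57 for sgMETTL16-2. Enriched windows made up 24.3% to 28.2% of MRPL windows, against 8.1% to 12.3% of all windows. Among enriched windows alone, the MRPL share called was below that of all enriched windows in replicate 1 and above it in replicate 2. It was 0% (sgMETTL16-1) and 2.78% (sgMETTL16-2) in replicate 1, against 3.59% and 11.8%. In replicate 2 it was 9.4% (sgMETTL16-1) and 9.7% (sgMETTL16-2), against 5.4% and 5.2%. Whether RPL and MRPL windows differ in the share called was not tested.

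Other TOP mRNAs, 19 genes for translation factors and related proteins, were called in 11.9% to 30% of their windows over the 4 tables. The share of all windows called was 0.355% to 1.84%. Whether the share of these TOP windows differs from that of RPL windows, at 13.0% to 19.3%, was not tested. In replicate 1, 9 of 74 windows were lower and 3 higher with sgMETTL16-1, and 14 of 70 were lower and 7 higher with sgMETTL16-2. In replicate 2, 5 of 58 were lower and 3 higher with sgMETTL16-1, and 2 of 59 were lower and 5 higher with sgMETTL16-2. TPT1, a growth-related protein, was called lower in all 4 tables: its window at chromosome 13, 45336849 to 45337477 had -0.275 (sgMETTL16-1) and -0.63 (sgMETTL16-2) in replicate 1, and windows inside it had -0.44 (sgMETTL16-1) and -0.57 (sgMETTL16-2) in replicate 2 in the authors' deposited tables. EEF2, the factor that moves the ribosome along, rose in every table in at least 1 window, and 2 of its 4 called windows with sgMETTL16-1 in replicate 2 fell. Of the 6 called windows of EEF2 with sgMETTL16-2 in replicate 1, all rose, by 0.15 to 0.34 in the authors' deposited table.

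Genes for the assembly of the large subunit, 30 in all, had 2 windows called lower with sgMETTL16-1 and 6 lower and 1 higher with sgMETTL16-2 in replicate 1, of 147 and 134. These calls made up 1.36% (sgMETTL16-1) and 5.22% (sgMETTL16-2) of their windows, against 0.355% and 1.84% of all windows. In replicate 2, 3 of 127 were higher with sgMETTL16-1 (2.36%) and 3 of 121 with sgMETTL16-2 (2.48%), and none was lower. Calls in either direction made up 0.749% (sgMETTL16-1) and 0.734% (sgMETTL16-2) of all windows there. Of enriched windows of the assembly genes, 3.2% (sgMETTL16-1) and 6.1% (sgMETTL16-2) were called in replicate 1, against 3.59% and 11.8% of all enriched windows. In replicate 2 these shares were 10.3% (sgMETTL16-1) and 10.7% (sgMETTL16-2), against 5.4% and 5.2%. The same 3 genes gave the replicate 2 calls of both guides: PES1, of the PeBoW complex, at 0.51 (sgMETTL16-1) and 0.43 (sgMETTL16-2), the helicase DDX24 at 0.43 and 0.39, and NOP2, which methylates 28S ribosomal RNA, at 0.515 and 0.585 in the authors' deposited tables. DDX18, a helicase of the nucleolus, fell in replicate 1 by 0.86 (sgMETTL16-1) and 1.38 (sgMETTL16-2). Rows named RPL that the rule leaves out, readthrough transcripts, pseudogenes and the paralogues RPL7L1, RPL22L1 and RPL26L1, had 1 call in each replicate 2 table and none in replicate 1. Their share called in replicate 2 was 2.13% (sgMETTL16-1) and 2.22% (sgMETTL16-2), against 0.749% and 0.734% of all windows. Both calls were in RPL7L1, at -2.06 (sgMETTL16-1) and -2.22 (sgMETTL16-2) in windows that were not enriched in the authors' deposited tables.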

How the data were processed

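Input and m6A IP libraries of poly(A) RNA (TruSeq Stranded kit, 12 libraries) were sequenced, and STAR and GRCh38 are named in the submitters' processing notes. The sources used here do not give the peak caller, versions, annotation, use of strand in counting, or which sgNS libraries entered each table. Only 4 tables of comparisons by the authors were used. Per the file headers, each row holds a log2 fold change of the difference, a fold enrichment (ratio) of IP over input, and log10 p-values and FDRs, which the authors deposited on a scale treated here as a score. No values per library were used, so depth is unknown and no interval or error could be computed. In the deposited tables the p-value of the difference behaves as one-sided.

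Calls used the authors' FDR under 0.05, lower or higher by sign. Windows of a guide were matched 1 to 1 on strand, name and an overlap, over blocks, of 0.5 or more of both windows. No model was fitted and no p-value was computed over the members. Members, lists and named genes were chosen with earlier results of these data known. Named were genes called alike or oppositely in both tables of a guide, up to 10 lower and 10 higher genes per guide with the largest called change, the stalk, the 5S RNP and the copy pairs. The RPS, MRPL, TOP and assembly genes given as examples were chosen after their values were seen, as were RPL30, RPL13, RPL13A and RPL41. Gene ends and start sequences came from RefSeq (GRCh38.p14), with starts on chromosome 8 left out, and coordinates count from 1. Alternatives were stricter thresholds, another overlap, a two-sided p-value with Benjamini-Hochberg adjustment, and values taken relative to the enriched median of their table, which for genes called with both guides and for lead windows was chosen after seeing the data. Matching, calls and the shift were tested on simulated data. Python 3.11.15 with pandas 2.3.3, numpy 2.4.6 and scipy 1.17.1 was used. Some list members are not reported here.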

Additional observations from a re-analysis of the deposited data

Results flagged for a closer look

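In 5 genes the lead windows lay on one side of 0 in both tables of sgMETTL16-2 and on the other in both tables of sgMETTL16-1. The difference was not tested. Relative to the enriched medians of the tables, none of the 5 kept opposite sides in the guides. The mean log2 fold change of sgMETTL16-2 minus that of sgMETTL16-1 was 0.72 for RPL7A (0.21 against -0.51), whose lead windows lie in different places, and 0.32 for RPL35 (0.19 against -0.13). It was 0.25 for RPL14 (0.10 against -0.15), 0.12 for RPL28 (0.068 against -0.052) and 0.046 for RPL13 (0.021 against -0.025).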

How the results depend on the processing

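No paired analysis was possible because the tables hold comparisons and no library values, and depth is unknown. Where absolute log2 fold changes had to reach 1, the counts called lower for sgMETTL16-1 were 1 (replicate 1) and 1 (replicate 2), those for sgMETTL16-2 were 0 and 2, and those called higher 0 and 0, then 0 and 2. Where fold enrichment had to reach 2, in the same order, 1, 3, 1 and 2 were lower and 0, 2, 0 and 2 higher, and the medians of sgMETTL16-2 were -0.415 and -0.26. At an FDR under 0.01, sgMETTL16-1 replicate 2 had 3 lower and 4 higher, and sgMETTL16-2 replicate 1 had 1 higher. With a two-sided p, sgMETTL16-1 replicate 2 had 4 higher. After the shift, which also uses a two-sided p, sgMETTL16-1 replicate 2 had 11 lower and 0 higher, sgMETTL16-2 had 1 higher in replicate 1 and 3 in replicate 2, and the medians were -0.15 for sgMETTL16-1 replicate 2 and -0.24 and -0.135 for sgMETTL16-2. RPL28 (sgMETTL16-2 replicate 1) turned to -0.042 and RPL8 (sgMETTL16-2 replicate 2) to -0.039. Over enriched windows alone, chosen after seeing the data, the median of sgMETTL16-2 replicate 2 was 0.11.

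Windows lower in both tables of sgMETTL16-1 numbered 1 at an overlap of 0.8, 0 at either size limit and 1 after the shift, and those of sgMETTL16-2 numbered 2 after the shift. With 1 replicate left out, the counts are those of single tables: 5 to 18 lower and 3 to 7 higher for sgMETTL16-1, and 4 to 18 lower and 2 to 9 higher for sgMETTL16-2. The cause of these changes was not tested.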
